A study of Mus musculus with 46 samples.

Results

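B16F10 is a mouse melanoma cell line, and the comparison described here is between cultures that carried a control guide (sgScramble, written sgScr in the library names) and were labelled as given murine interferon gamma (IFNγ) for 24 h or PBS. It was chosen by label: 2 libraries labelled sgScr_IFNg and 2 labelled sgScr_PBS, 4 of the 46 samples of the series. The same table holds 2 libraries labelled sgArid1a_PBS and 2 labelled sgArid1a_IFNg, from cells with a guide against Arid1a. For the effect of the guide without IFNγ, 2 further experiments on B16F10 were used: untreated cultures labelled sgScr and sgArid1a (2 libraries each), and cultures given DMSO for 72 h as the vehicle arm of a JAK inhibitor experiment, again labelled sgScr and sgArid1a (2 libraries each). All 8 libraries of the IFNγ table were made from polyA RNA of cells grown in culture. The dose of IFNγ, and whether cells with a guide were 1 clone or a pool, are not given in the sources used here. The comparison asks which transcripts of control melanoma cells differ between the IFNγ and PBS labels.

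IFNγ binds a receptor of the chains Ifngr1 and Ifngr2, which signals through the kinases Jak1 and Jak2. The signal acts on gamma-activated sites (GAS) in promoters and induces Irf1, which in turn acts on interferon-stimulated response elements (ISREs). Known targets are the guanylate-binding proteins and immunity-related GTPases, the MHC class I chains with the machinery that supplies them with peptide, the class II regulator Ciita, and the checkpoint ligand Cd274 (PD-L1). Arid1a belongs to SWI/SNF, a complex that moves nucleosomes, and helps to bind it to DNA.

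The 8 libraries held 27.2 to 31.2 M counted reads. All 7 melanocytic markers (Pmel, Mlana, Tyr, Tyrp1, Dct, Sox10 and Mitf) were above the filter on low values. Of the 10 markers of T and NK cells present in the table, 8 were at 0 in all 8 libraries, and of 11 macrophage markers 4 were at 0 and 2 passed the filter. Of 24537 genes, 12357 had a mean normalized log2 value of at least 4 and were tested with limma. On this scale a difference of 1 is a 2-fold change, but low values are drawn together, so differences of low genes are understated. Nothing says that replicates came from separate cultures, so p-values measure only the spread between these libraries, which may be technical. Errors after ± are standard errors of the log2 difference.

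The values of the 2 libraries labelled sgScr_IFNg and the 2 labelled sgArid1a_PBS went against their labels, and all results are therefore stated by deposited label, with no library moved. The targeted gene was examined first. Arid1a (chr4:133679008-133753611, minus strand, mm10) had log2 values of 12.42 and 12.40 in the libraries labelled sgScr_PBS, 12.25 and 12.40 in sgArid1a_PBS, 11.997 and 12.110 in sgScr_IFNg, and 12.15 and 12.13 in sgArid1a_IFNg. The 2 IFNγ-labelled groups lay below every PBS-labelled library, whichever guide the label named. Relative to the sgScr_PBS label, Arid1a fell by 0.35 ± 0.048 in the libraries labelled sgScr_IFNg (adjusted p = 1.7e-05) and by 0.27 ± 0.048 in sgArid1a_IFNg (adjusted p = 0.00024). The difference for the sgArid1a_PBS label was -0.08 ± 0.048 (adjusted p = 0.51). In untreated cultures of another experiment Arid1a was lower with the sgArid1a label by a log2 difference of -0.58 ± 0.11 (adjusted p = 0.016), and in DMSO cultures the difference was -0.26 ± 0.13 (adjusted p = 0.28).

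Irf1, the interferon regulatory factor that IFNγ induces, gave the opposite order. Its log2 values were 9.81 and 9.81 in the libraries labelled sgScr_PBS, 12.53 and 12.34 in sgArid1a_PBS, 10.13 and 10.07 in sgScr_IFNg, and 13.04 and 12.97 in sgArid1a_IFNg. Irf1 was thus high in both groups labelled sgArid1a, PBS included, while its rise with the sgScr_IFNg label was 0.29 ± 0.053 (adjusted p = 0.00038). In the untreated and DMSO cultures, where no IFNγ label was given, Irf1 was higher with sgArid1a by 0.84 ± 0.14 (adjusted p = 0.0077) and 0.36 ± 0.099 (adjusted p = 0.029), against 2.63 ± 0.053 between the sgArid1a_PBS and sgScr_PBS labels. These 3 differences come from tables normalized separately, and the differences between them were not tested.

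**Figure D1:**
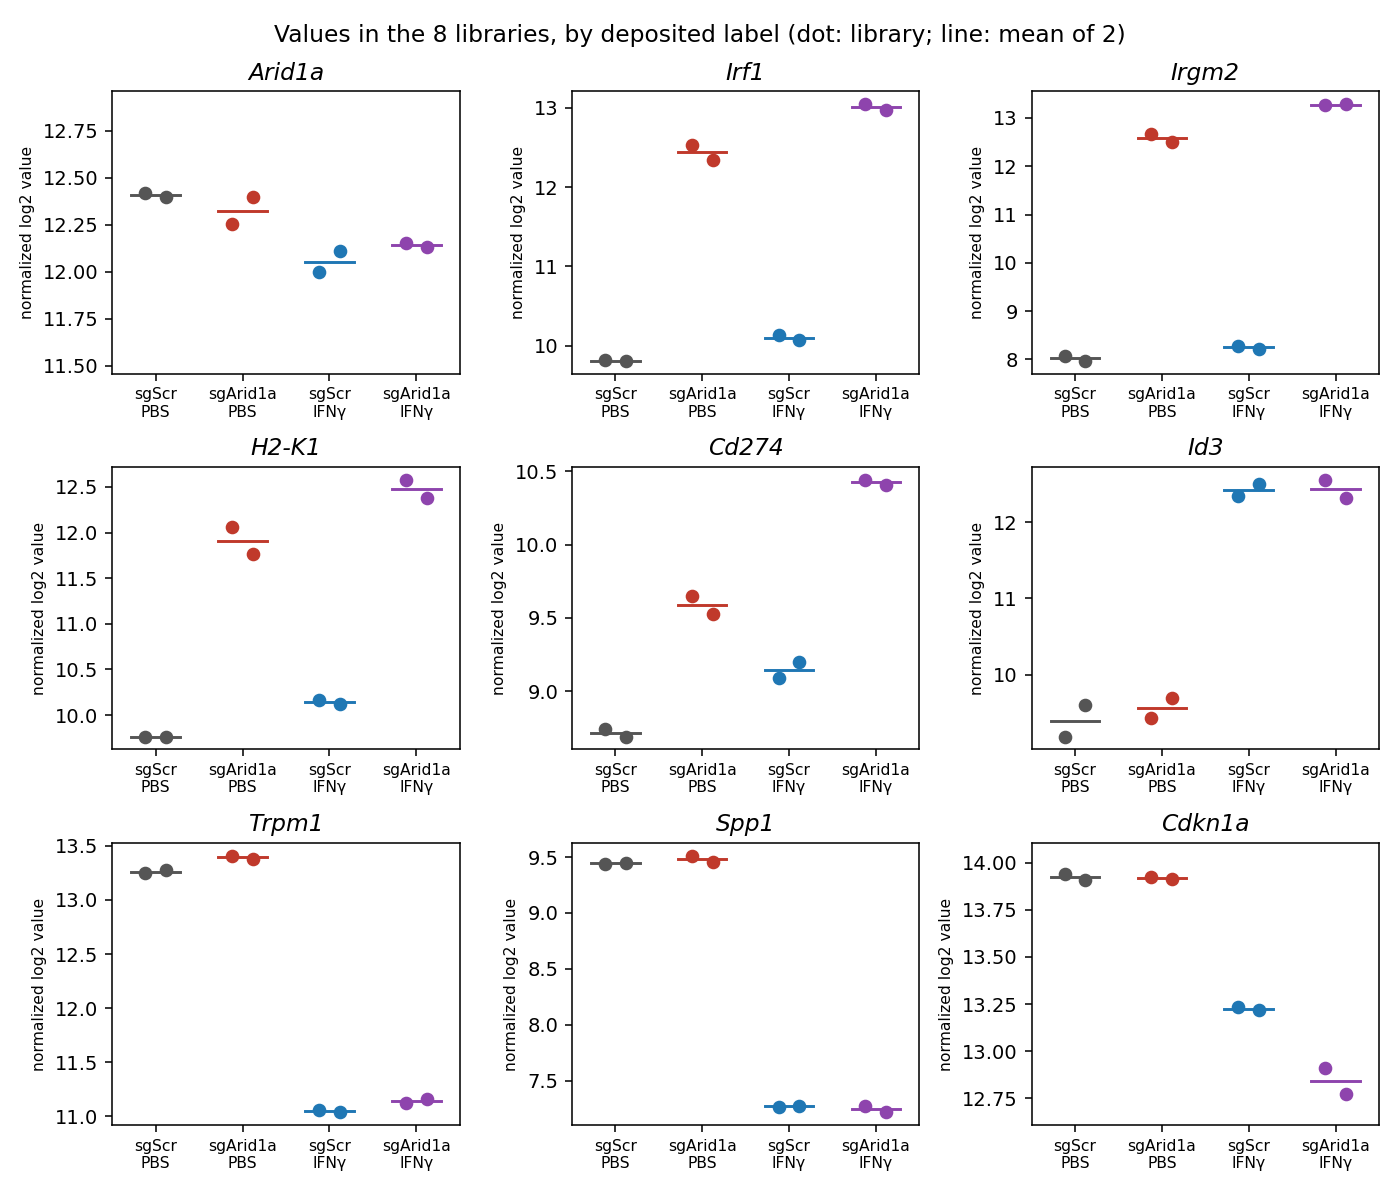
Normalized log2 values (vertical axis) of 9 genes in the 8 libraries, by deposited label; dots are libraries and lines are means of 2. Irf1, Irgm2, H2-K1 and Cd274 are highest in the 2 groups labelled sgArid1a, while Arid1a, Id3, Trpm1, Spp1 and Cdkn1a separate the 2 groups labelled IFNγ from the 2 labelled PBS.

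A set of genes that answered to the guide elsewhere gave the same separation. It holds the genes called in the same direction with a log2 difference of at least 0.5 in both the untreated and the DMSO cultures, in no interferon list: 133 lower and 23 higher with sgArid1a. The mean log2 value of the 133 lower genes was 10.17 in both libraries labelled sgScr_PBS, 10.22 and 10.19 in sgArid1a_PBS, 9.69 and 9.68 in sgScr_IFNg, and 9.68 and 9.65 in sgArid1a_IFNg. Both IFNγ-labelled groups were low and both PBS-labelled groups were high. Of these 133 genes, 101 were called lower and 5 higher between the sgScr_IFNg and sgScr_PBS labels (median -0.36), against 19.3% lower and 15.7% higher among all tested genes. Between the sgArid1a_PBS and sgScr_PBS labels, the guide comparison by label, 1 was called lower and 11 higher (median 0.03), against a background of 0.348% lower and 2.37% higher. For the sgArid1a_IFNg label against sgScr_PBS, 107 were lower and 6 higher (background 21.5% and 19.2%), and against sgArid1a_PBS 110 were lower and 3 higher (background 21.3% and 20.9%). Of the 23 genes higher with sgArid1a elsewhere, 13 were called higher and 4 lower in the libraries labelled sgScr_IFNg, and 2 higher and 0 lower in those labelled sgArid1a_PBS.

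The interferon lists ran the other way. Of 90 tested members of the 5 lists of GTPases, MHC class I, peptide supply, MHC class II and antiviral genes, 25 were called higher and 5 lower with the sgScr_IFNg label, with a median difference of 0.04 against 0.005 over all tested genes. With the sgArid1a_PBS label 81 were higher and 0 lower (median 0.84), and with sgArid1a_IFNg 86 were higher and 0 lower (median 1.51). These 3 comparisons share the libraries labelled sgScr_PBS. Of the 49 genes higher by at least 1 with the sgArid1a_PBS label, 45 were in a wider set of interferon lists. That wider set holds 114 of the 12357 tested genes. Both patterns are the ones that an exchange of the labels sgArid1a_PBS and sgScr_IFNg would give. Some guide-responsive genes did not follow: the sterol synthesis gene Mvd was higher with sgArid1a in untreated cultures by 1.13, while with the sgScr_IFNg label its difference was -0.36. Others moved far less: Trib3 differed by -2.77 in untreated and -2.35 in DMSO cultures, but by -0.17 with the sgScr_IFNg label. For Chac1 these differences were -2.30, -1.70 and -0.15. Of the 133 genes lower with sgArid1a elsewhere, 101 were called lower with the sgScr_IFNg label. Whether the labels were exchanged was not tested, and an exchange cannot be told apart from other mix-ups of these 4 libraries.

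By deposited label, then, the comparison of IFNγ with PBS in sgScramble cells held many calls. Of 12357 tested genes 4326 were called at an adjusted p under 0.05, 1943 higher and 2383 lower with the sgScr_IFNg label. These are 15.7% and 19.3% of the tested genes, the background for every list count of that label. A log2 difference of at least 1 was reached by 22 of the higher and 51 of the lower genes. None of the 22 and 1 of the 51 was in the wider set of interferon lists, on a scale that understates differences of low genes. That set holds only 114 of the 12357 tested genes, so these counts are near its share and do not set the largest changes apart. The number of higher genes depended on the PBS libraries: it was 1263 without sgScr_PBS replicate 1 and 1171 without sgScr_PBS replicate 2. In the authors' deposited table, 1595 genes were higher and 2182 lower at an adjusted p under 0.05 for the same labels. By the authors' edgeR values, some called interferon genes rose by more than 1: Psmb9 (1.61), H2-M3 (1.40), Irf7 (1.39), Tap2 (1.16) and Parp14 (1.03). Nlrc5 (-1.28) and Ifitm3 (-1.25) fell by more than 1.

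**Figure D2:**
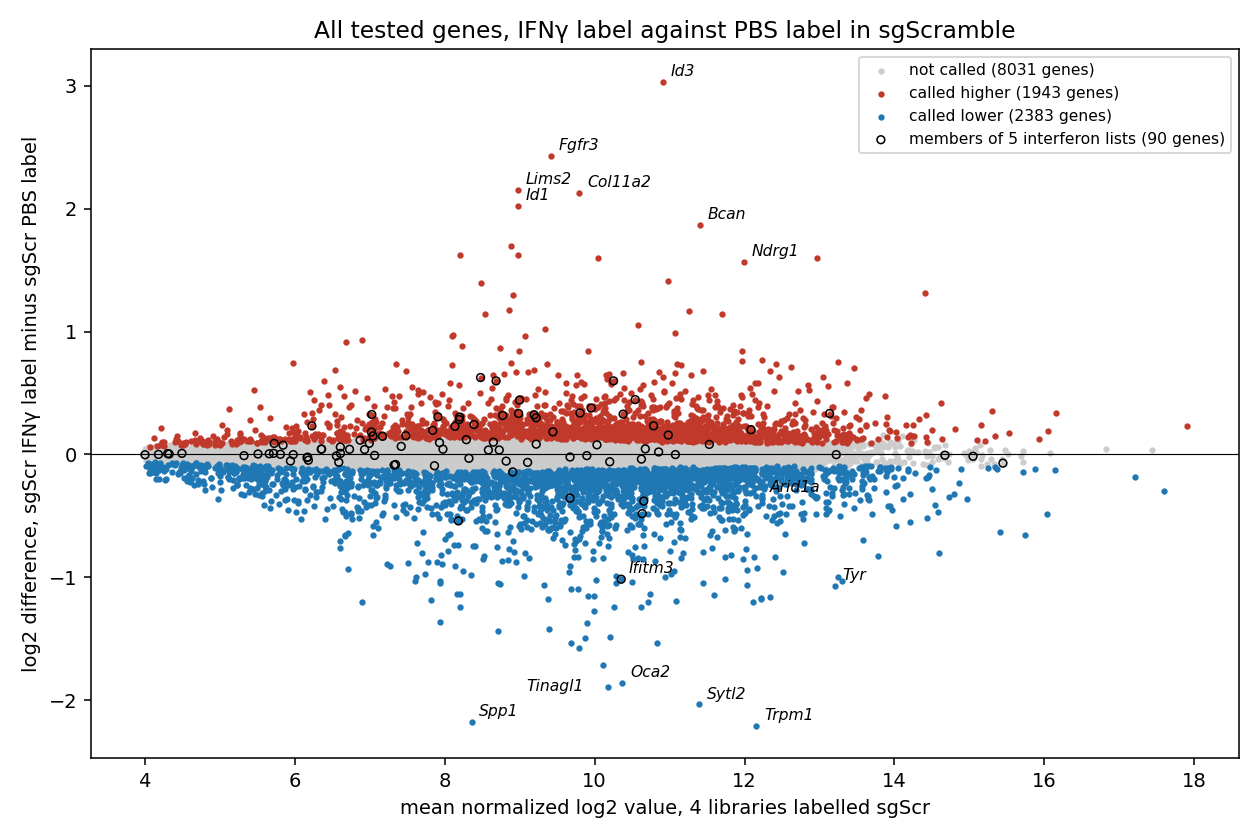
Mean normalized log2 value over the 4 libraries labelled sgScr (horizontal axis) and log2 difference between the IFNγ and PBS labels (vertical axis) for the 12357 tested genes, coloured by call, with 90 members of 5 interferon lists circled. Id3, Fgfr3 and Lims2 lie highest and Trpm1, Spp1 and Sytl2 lowest, and the circled interferon genes lie near 0 apart from a few such as Ifitm3.

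Among the receptor, kinase and transcription factor genes of the IFNγ pathway, 8 of 24 tested were called higher, 3 lower and 13 not called with the sgScr_IFNg label (median 0.007), against 15.7% higher and 19.3% lower among all tested genes. The share of lower members was below that of all genes. Without sgScr_PBS replicate 1 the higher count was 5. Irf1, given above, was among the higher genes. The kinase gene Jak1 rose by 0.21 ± 0.042 (adjusted p = 0.0011) and Nmi, an interferon-inducible protein, by 0.28 ± 0.050 (adjusted p = 0.00027). The receptor chain Ifngr2 fell by 0.36 ± 0.053 (adjusted p = 4.6e-05), and Stat3 fell by 0.28 ± 0.040 (adjusted p = 3.3e-05). Differences of Ifngr1 (0.05 ± 0.050), Jak2 (0.09 ± 0.052) and the feedback inhibitor Socs1 (-0.03 ± 0.044) did not pass the test.

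Of the interferon-inducible GTPases, which act against intracellular pathogens, 15 of 21 passed the filter, 1 of the other 6 was at 0 in every library, and the remaining 5 were below the filter. With the sgScr_IFNg label 4 of the 15 were called higher and 0 lower (median 0.04); without sgScr_PBS replicate 2 the higher count was 2. The 4 were Gbp2, Gbp7, Irgm1 and Irgm2, of which Gbp7 (0.14) and Irgm2 (0.18) were not called without that replicate; nor was Gbp7 (0.22) without sgScr_IFNg replicate 2. Irgm2 (chr11:58214977-58222783, plus strand) had log2 values of 8.07 and 7.97 in sgScr_PBS, 8.27 and 8.22 in sgScr_IFNg, 12.67 and 12.51 in sgArid1a_PBS, and 13.26 and 13.28 in sgArid1a_IFNg. The rise with the sgScr_IFNg label was 0.23 ± 0.053 (adjusted p = 0.0028), and the 2 groups labelled sgArid1a did not overlap those labelled sgScr. Igtp went from 7.74 and 7.73 to 7.97 and 7.90, a difference of 0.20 ± 0.092 that did not pass (adjusted p = 0.11) but was called when only the 4 sgScramble libraries were fitted or the libraries labelled sgArid1a_PBS were left out. The authors' edgeR test called Igtp higher for the same labels (log2 fold change 0.83, adjusted p = 0.00049). With the sgArid1a_PBS label 14 of the 15 were higher (median 2.85). Close paralogs in this family share sequence, so values of single members are uncertain.

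Some promoters of this pathway carry elements through which the signal acts, and the IFNγ-inducible genes Irf1, Gbp2, Igtp and Irgm1 are shown for that reason. The 120 bases upstream of the annotated start follow 5′ to 3′ on the gene's strand (RefSeq, GRCm38.p6), with GAS matches (TTCNNNGAA) and ISRE core matches (GAAANNGAA, either strand) in capitals. Overlapping matches are capitalised as 1 run.
Irf1 chr11:53769894-53770013 plus strand: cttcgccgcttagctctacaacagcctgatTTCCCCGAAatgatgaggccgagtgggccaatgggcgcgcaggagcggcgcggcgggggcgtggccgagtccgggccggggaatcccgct
Gbp2 chr3:142620543-142620662 plus strand: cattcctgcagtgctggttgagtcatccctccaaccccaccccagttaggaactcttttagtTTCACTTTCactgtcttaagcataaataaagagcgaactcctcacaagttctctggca
Igtp chr11:58199436-58199555 plus strand: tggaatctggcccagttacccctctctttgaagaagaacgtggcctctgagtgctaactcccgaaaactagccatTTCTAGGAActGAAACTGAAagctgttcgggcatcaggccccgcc
Irgm1 chr11:48871421-48871540 minus strand: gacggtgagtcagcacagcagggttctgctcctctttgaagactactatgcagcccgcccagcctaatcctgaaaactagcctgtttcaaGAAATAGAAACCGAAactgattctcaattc

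The GAS of Irf1 begins 90 bases before the start, the GAS and ISRE core of Igtp 45 and 34 bases before it, and the ISRE core of Gbp2 58 bases before it. Irf1 has another annotated start, and the 250 bases before that start held no GAS or ISRE core match. In the 250 bases before the start, 7 of 11 tested GTPase genes with a RefSeq promoter held a GAS match and 10 of 11 an ISRE core match, against 8.13% and 8.18% of all 27025 genes. Other interferon lists held fewer. A GAS match was held by 1 of 11 peptide supply, 1 of 7 class I, 0 of 4 class II and 5 of 35 antiviral genes. An ISRE core match was held by 1, 3, 0 and 13 of them. Of the genes called higher with the sgScr_IFNg label 1486 had a promoter entry, and 7.54% held a GAS and 7.34% an ISRE core. Of the genes called lower these shares were 6.93% and 6.88%. None of these shares was above the 8.13% and 8.18% of all 27025 genes. That background includes genes that were not tested here, and the shares over the tested genes were not computed. A match is a description of the letters and not a binding site.

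MHC class I chains, which present peptide to CD8 T cells, rose in part. Of 8 tested members 3 were called higher and 0 lower with the sgScr_IFNg label (median 0.07). H2-K1 had log2 values of 9.76 and 9.76 in sgScr_PBS and 10.17 and 10.12 in sgScr_IFNg, a rise of 0.38 ± 0.073 (adjusted p = 0.00067). H2-Q4 rose by 0.44 ± 0.055 (adjusted p = 7.7e-06) and H2-M3 by 0.23 ± 0.056 (adjusted p = 0.0035). The light chain B2m had 13.20 and 13.25 against 13.27 and 13.18, so its groups overlapped. In the libraries labelled sgArid1a_PBS B2m was at 14.94 and 14.79, and 7 of the 8 members were called higher (median 1.19).

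The genes that supply class I molecules with peptide moved in both directions with the sgScr_IFNg label. Of 14 tested, 4 were called higher, 2 lower and 8 not called (median 0.03). The transporter subunit Tap2 rose from 8.16 and 8.16 to 8.78 and 8.80 (0.63 ± 0.066, adjusted p = 1e-06), while Tap1, the other subunit, had 9.21 and 9.07 against 9.19 and 8.96 (adjusted p = 0.54). The loading factor Tapbp rose by 0.45 ± 0.049 (adjusted p = 1.7e-06). Nlrc5, the transactivator of class I genes, fell by 0.54 ± 0.066 (adjusted p = 5.2e-06) and the immunoproteasome subunit Psmb10 fell by 0.36 ± 0.068 (adjusted p = 0.00061). The subunits Psmb8 and Psmb9 differed by 0.07 ± 0.080 and 0.15 ± 0.082 and were not called. In the authors' edgeR test Psmb9 was called higher (log2 fold change 1.61, adjusted p = 0.0002), while Psmb8 was not (0.36, adjusted p = 0.59). With the sgArid1a_PBS label 11 of the 14 were higher and 0 lower (median 2.09), Nlrc5 by 2.95 ± 0.066 and Psmb8 by 3.28 ± 0.080.

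No MHC class II gene was called with the sgScr_IFNg label among 7 tested (median -0.02). Ciita, the class II transactivator and a known IFNγ target, had log2 values of 5.71 and 5.70 in sgScr_PBS and 5.74 and 5.70 in sgScr_IFNg. It was at 6.35 and 6.16 in sgArid1a_PBS and 7.02 and 6.78 in sgArid1a_IFNg. H2-Ab1, a class II chain, followed the same order, with 6.0 and 5.96, then 6.01 and 5.94, against 6.54 and 6.36 and 7.82 and 7.62. With the sgArid1a_PBS label 6 of the 7 were called higher (median 0.45).

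Of 46 tested antiviral genes of the type I interferon response 14 were called higher, 3 lower and 29 not called with the sgScr_IFNg label (median 0.08). The ADP-ribosyltransferases Parp12 and Parp14 rose by 0.60 ± 0.049 (adjusted p = 5.4e-08) and 0.60 ± 0.065 (adjusted p = 1.5e-06). Parp14 was also higher with the sgArid1a label in untreated cultures, by 0.96 ± 0.13. The membrane protein Ifitm3, which blocks virus entry, fell from 10.80 and 10.92 to 9.89 and 9.80, by 1.02 ± 0.048 (adjusted p = 4.3e-11), and was higher with the sgArid1a_PBS label at 12.16 and 12.08. Isg15, a ubiquitin-like modifier, differed by 0.10 ± 0.068 and Ifit1, which binds viral RNA, by -0.14 ± 0.059, and neither was called, although Ifit1 was called lower when the libraries labelled sgArid1a_PBS were left out of the fit. In untreated cultures Ifit1 was higher with sgArid1a by 1.04 ± 0.13 (adjusted p = 0.002).

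Cd274 rose with the sgScr_IFNg label from 8.74 and 8.69 to 9.09 and 9.20 (0.43 ± 0.055, adjusted p = 1.1e-05). It was at 9.65 and 9.52 in sgArid1a_PBS and 10.44 and 10.41 in sgArid1a_IFNg. The other checkpoint ligands called were lower: Nectin2 fell by 0.53 ± 0.046, Lgals9 (galectin-9) by 0.48 ± 0.048, Cd276 (B7-H3) by 0.43 ± 0.051, and Pvr also fell, which made 1 higher and 4 lower of 7 tested. The T cell attractant Cxcl10 rose by 0.35 ± 0.061 (adjusted p = 0.00024), while Ccl5 fell by 0.48 ± 0.052 (adjusted p = 1.5e-06). Of 10 tested cell death genes 1 was higher and 5 were lower, with a background of 15.7% and 19.3%. The lower count was 3 without either PBS replicate and 2 in limma without trend, and the higher count was 0 without sgScr_PBS replicate 1 or sgScr_IFNg replicate 1. The necroptosis effector Mlkl fell by 0.28 ± 0.042. Of 19 tested genes of nucleic acid sensing 3 were higher and 5 lower, near the 15.7% and 19.3% of all tested genes; without sgScr_PBS replicate 1 the higher count was 0. The adaptor Tmem173 (STING) fell by 0.32 ± 0.047 (adjusted p = 4.3e-05).

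**Figure D3:**
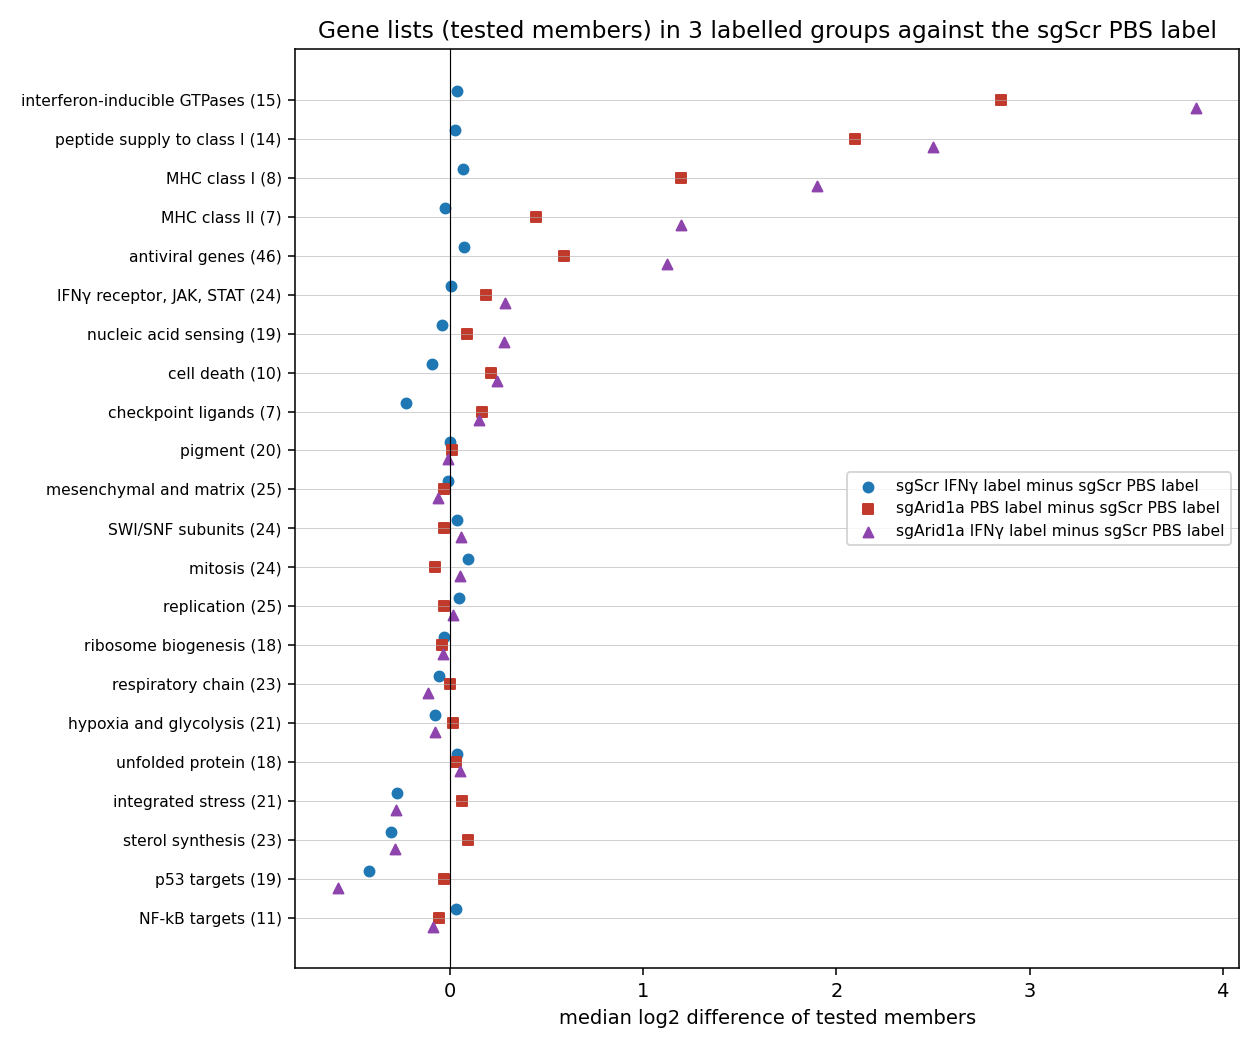
Median log2 difference (horizontal axis) of the tested members of 22 gene lists (vertical axis, number tested in brackets) for 3 labelled groups against the sgScr_PBS label. The interferon lists stand apart in the groups labelled sgArid1a, up to 2.85 and 3.86 for the GTPases, and not in the libraries labelled sgScr_IFNg, while integrated stress, sterol and p53 lists are lowest in the 2 groups labelled IFNγ.

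The 15 largest rises with the sgScr_IFNg label included 3 Id genes and 2 Smad genes. Id3 (chr4:136143822-136145392, plus strand), an inhibitor of basic helix-loop-helix factors, had log2 values of 9.19 and 9.59 in sgScr_PBS, 12.35 and 12.50 in sgScr_IFNg, 9.43 and 9.69 in sgArid1a_PBS, and 12.56 and 12.32 in sgArid1a_IFNg. Both IFNγ-labelled groups were above both PBS-labelled groups, and the rise in sgScr was 3.03 ± 0.105 (adjusted p = 9.4e-13). Id1 rose by 2.02 ± 0.083 (adjusted p = 7.1e-12) and Id2 by 1.60 ± 0.047 (adjusted p = 1.7e-13). The inhibitory Smad6 rose by 1.69 ± 0.062 and Smad9, a signal-transducing Smad, by 1.62 ± 0.068.

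Other genes among the 15 largest rises encode receptors and matrix or adhesion proteins. Fgfr3, a fibroblast growth factor receptor, rose from 8.31 and 8.08 to 10.47 and 10.79 (2.43 ± 0.086). Col11a2, a chain of type XI collagen, rose from 8.73 and 8.72 to 10.86 and 10.86 (2.13 ± 0.050). Lims2, a focal adhesion adaptor, rose by 2.16 ± 0.059 and Bcan, a chondroitin sulphate proteoglycan, by 1.87 ± 0.056. The remaining 6 were D630003M21Rik, Fbxo2, Ndrg1, Padi2, Atoh8 and Plxnd1, with rises of 1.31 to 1.63. In the libraries labelled sgArid1a_PBS these 15 genes differed from sgScr_PBS by -0.15 to 0.17, and none was called.

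The 15 largest falls were led by Trpm1, Spp1 and Sytl2. Trpm1 (chr7:64185459-64224836, plus strand), a melanocyte cation channel, had log2 values of 13.25 and 13.28 in sgScr_PBS, 11.06 and 11.04 in sgScr_IFNg, 13.41 and 13.38 in sgArid1a_PBS, and 11.13 and 11.16 in sgArid1a_IFNg. Its fall was 2.21 ± 0.036 (log2 difference -2.21, adjusted p = 1.1e-16), with no overlap between the IFNγ and PBS labels. Spp1 (osteopontin), a secreted matrix protein, went from 9.44 and 9.45 to 7.26 and 7.27, and fell by 2.18 ± 0.049. Sytl2, a Rab27 effector of vesicle transport, fell by 2.03 ± 0.037, and Oca2, a melanosomal transporter, fell by 1.86 ± 0.068. The matrix protein Tinagl1 fell by 1.89 ± 0.049 and the lipase Mgll fell by 1.71 ± 0.052. The other 9 were Cp, Ak1, Gxylt2, Ahnak, Epha3, Hoxa11, Ppargc1a, Sema6d and Cpz, which fell by 1.37 to 1.58. Hoxa11 overlaps an antisense gene, and without a stated strand option the reads of the 2 cannot be told apart. In the libraries labelled sgArid1a_PBS these 15 genes differed by -0.14 to 0.22, and Cp alone was called, higher by 0.22 ± 0.046.

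The genes past a log2 difference of 1 were followed into the untreated and DMSO cultures, where only the guide label differs and no library is shared. Of the 51 genes lower with the sgScr_IFNg label 49 were tested there. With sgArid1a 30 were called lower and 0 higher in untreated cultures (median -0.68, background 3.27% lower and 2.31% higher), and 29 lower and 0 higher in DMSO cultures (median -0.50, background 3.88% and 2.35%). Trpm1 was lower with sgArid1a by a log2 difference of -2.27 ± 0.12 in untreated and -1.52 ± 0.10 in DMSO cultures, beside -2.21 for the IFNγ label here. Of the 22 genes higher with the sgScr_IFNg label 21 were tested, and 7 were higher and 0 lower in each of the 2 experiments (medians 0.33 and 0.17). The Id and Smad genes were not among those 7: Id2 differed by -0.03 ± 0.13, Id3 by -0.58 ± 0.18 and Smad6 by 0.30 ± 0.15 in untreated cultures, none of them called.

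**Figure D4:**
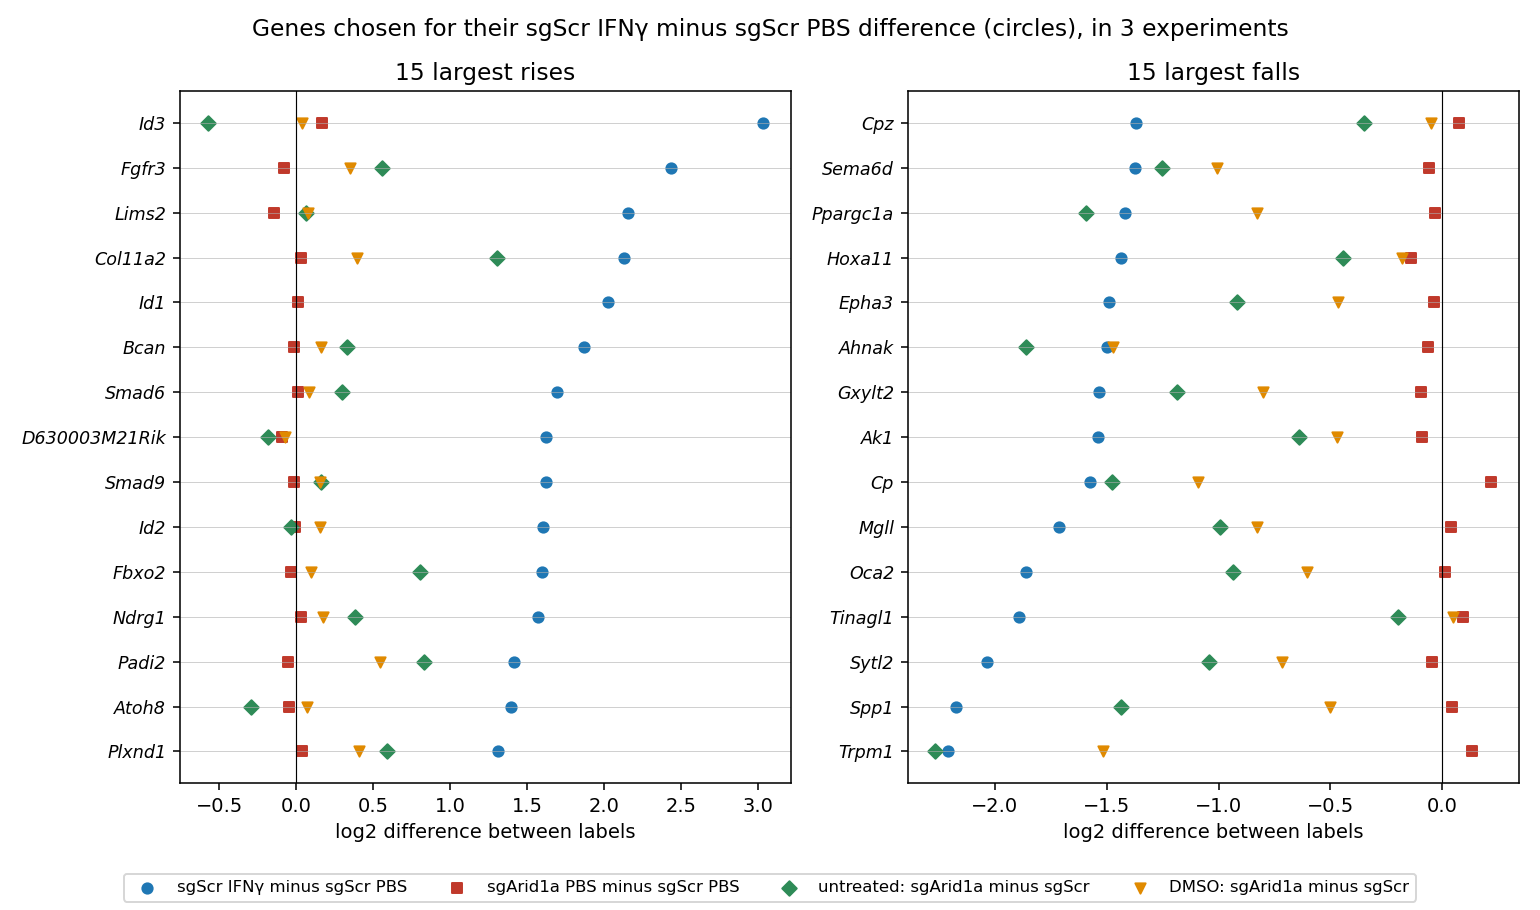
Log2 differences (horizontal axis) of the 15 genes with the largest rise and the 15 with the largest fall between the sgScr IFNγ and PBS labels (circles), with the sgArid1a PBS label (squares) and the guide differences of the untreated (diamonds) and DMSO (triangles) cultures. Squares lie near 0 throughout. For falls such as Trpm1, Ahnak and Cp the diamonds and triangles lie with the circles, while for the falls Tinagl1, Hoxa11 and Cpz they lie well short of the circles. For Id3, Id2 and Smad6 they lie near or below 0.5, and Id1 was not tested in the other 2 experiments.

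The libraries labelled sgArid1a_IFNg and sgArid1a_PBS give the same label contrast with no library in common. Of the 1943 genes higher with the IFNγ label in sgScr 1383 were also higher there, 71.2% of the sgScr calls and 53.5% of the 2585 sgArid1a calls. Of the 2383 lower genes 1972 were also lower, 82.8% and 74.8% of the 2 lists. All 22 genes that rose by at least 1 and all 51 that fell by at least 1 in sgScr were called in the same direction there, where 20.9% of all tested genes were called higher and 21.3% lower. The difference between the 2 IFNγ-label effects, tested as an interaction, was called for 0.882% of genes.

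Pigment genes split with the sgScr_IFNg label. Of 20 tested, 5 were called higher, 9 lower and 6 not called (median 0.004). Tyr, the rate-limiting enzyme of melanin synthesis, fell from 13.74 and 13.73 to 12.62 and 12.71 (log2 difference -1.07 ± 0.037, adjusted p = 9.4e-13). The transporter Slc45a2 fell by 0.51 ± 0.033, the receptor kinase Kit fell by 0.69 ± 0.048 and Tyrp1 fell by 0.30 ± 0.034. The transcription factors did not fall with them: Sox10 rose by 0.24 ± 0.033 (adjusted p = 2.3e-05) and Mitf differed by 0.03 ± 0.047. Mlana, a melanosomal protein, differed by 0.01 ± 0.039. With quantile normalization the fall of Tyrp1 was 0.094 and was no longer called. No pigment gene was called with the sgArid1a_PBS label.

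Among p53 targets 15 of 19 tested were called lower and 0 higher (median -0.42). The kinase gene Plk2 fell by 1.10 ± 0.045 (adjusted p = 7.2e-12) and Ccng1 fell by 0.82 ± 0.039. Cdkn1a, the cell cycle inhibitor p21, went from 13.94 and 13.91 to 13.23 and 13.22, with 13.92 and 13.91 in sgArid1a_PBS and 12.91 and 12.77 in sgArid1a_IFNg. Both IFNγ-labelled groups were below both PBS-labelled groups for Cdkn1a. Trp53 itself differed by 0.07 and was not called.

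Genes of the integrated stress response and amino acid supply were lower in 16 of 21 tested and higher in 1 (median -0.27). Nupr1, a stress-induced chromatin protein, fell by 1.13 ± 0.062 (adjusted p = 3e-10), the cystine transporter Slc7a11 fell by 0.67 ± 0.053, the serine synthesis enzyme Phgdh fell by 0.48 ± 0.041 and Sesn2, shared with the p53 list, fell by 0.62 ± 0.045. Of 23 genes of sterol synthesis and uptake 18 were lower and 0 higher (median -0.30). The demethylating enzyme genes Msmo1 and Nsdhl fell by 0.59 ± 0.042 and 0.60 ± 0.056, and the synthase Hmgcs1 fell by 0.53 ± 0.045 (adjusted p = 8.9e-08). For the sgArid1a_PBS label the medians of the 2 lists were 0.06 and 0.10, with 0 members lower in each.

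Mesenchymal and matrix genes had 7 members higher and 8 lower of 25 tested (median -0.006), beside 15.7% higher and 19.3% lower among all tested genes, which is the background for each list in this paragraph. Vim, an intermediate filament, rose by 0.34 ± 0.039 and the protease Mmp14 by 0.31 ± 0.036, while Sparc, a matrix glycoprotein, fell by 0.80 ± 0.037. Of 21 tested genes of hypoxia and glycolysis 3 were higher and 7 lower; without sgScr_PBS replicate 1 the lower count was 4. Ndrg1, a stress-responsive differentiation gene, rose by 1.57 ± 0.039 and Ldha by 0.35 ± 0.038, while the glycolytic kinase Pfkp fell by 0.79 ± 0.038 and Vegfa fell by 0.41 ± 0.058. Among NF-kB genes 2 of 11 were higher and 2 lower: the inhibitor Nfkbia rose by 0.44 ± 0.057 and Tnfaip2 fell by 0.71 ± 0.051. The lower count of the NF-kB list was 1 without sgScr_PBS replicate 1, without sgScr_PBS replicate 2 and without sgScr_IFNg replicate 1.

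Cell cycle genes differed by small amounts, and the background for the counts that follow is 15.7% higher and 19.3% lower among all tested genes. Of 24 mitosis genes 11 were called higher and 1 lower (median 0.10), with Cdc25c higher by 0.23 ± 0.048 and Cenpf by 0.21 ± 0.045. Without sgScr_PBS replicate 1 the higher count was 5, and without replicate 2 it was 3. Of 25 replication genes 5 were higher, a share near that background, and 1 lower; the higher count was 2 without either PBS replicate and 3 without sgScr_IFNg replicate 2. Of 23 respiratory chain genes 0 were higher and 9 lower (median -0.05), and the lower count was 2 without sgScr_PBS replicate 2 and 4 without sgScr_IFNg replicate 2. Of 18 genes of the unfolded protein response 5 were higher and 2 lower; the higher count was 2 without either PBS replicate and 3 without sgScr_IFNg replicate 1. Of 18 ribosome biogenesis genes 0 were higher and 2 lower, and the lower count was 1 without sgScr_PBS replicate 2 or sgScr_IFNg replicate 1.

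SWI/SNF subunits included 6 called higher and 3 lower of 24 tested (median 0.04), against 15.7% and 19.3% of all tested genes, so the counts alone do not set this list apart. Besides Arid1a, the ATPase gene Smarca2 fell by 0.46 ± 0.046 (adjusted p = 5.4e-07). Bcl7a and Smarcd2, accessory subunits, rose by 0.36 ± 0.045 and 0.20 ± 0.039. No subunit was called with the sgArid1a_PBS label, Arid1a included.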

How the data were processed

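The tools named in the submitters' processing notes are STAR 2.5.3a, HOMER, edgeR and DESeq2, with the build mm10 (GRCm38); the file headers state no strand option, though the labels name a stranded kit. The authors deposited normalized log2 values per gene, with low values drawn together as by a regularized logarithm. The deposited tables also hold the authors' edgeR log2 fold changes and adjusted p-values, used only where named. Another 6 columns of per-sample values were left unused.

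The 4 groups (8 libraries) were fitted together in limma 3.58.1 (limma-trend, R 4.3.3) after a filter at a mean log2 of 4, without a replicate block, with Benjamini-Hochberg adjustment over all 12357 genes and a call at an adjusted p under 0.05. The untreated and DMSO tables (8.7 to 22.8 M reads a library) were fitted separately. On simulated libraries with these means and spreads, for the sgScramble comparison with 12357 genes, 50 genes were planted at each size of change. Of genes planted at a log2 difference of 0.25, 64% were recovered, with 96% at 0.5, 100% at 1 and 8 false calls. Far fewer genes were planted than were called in the data, so these rates need not hold there. Named genes were Arid1a, interferon-list members, up to 4 members with the smallest p per list, and up to 15 rises and 15 falls with groups that do not overlap. Other genes are given from the lists. The comparison and the 28 lists were chosen with earlier results of these data known. Alternatives were filters, scalings, the 4 sgScramble libraries alone, limma without trend and replicate blocks. Each of the 4 sgScramble libraries was left out in turn, and the libraries labelled sgArid1a_PBS were left out together. No library labelled sgArid1a was left out singly.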

Additional observations from a re-analysis of the deposited data

Results flagged for a closer look

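The change between the IFNγ and PBS labels differed between the sgArid1a and sgScr labels for 109 genes (interaction in limma, adjusted p under 0.05). The count was 57 without sgScr_PBS replicate 1, 71 without sgScr_PBS replicate 2 and 881 without sgScr_IFNg replicate 2. Exchanging the labels sgArid1a_PBS and sgScr_IFNg leaves this contrast algebraically the same. Values below are the IFNγ-label difference in sgArid1a minus that in sgScr, on the log2 scale.

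In the signalling genes the interaction was 0.66 for Stat2, 0.27 for Stat3, 0.49 for Irf7, 0.68 for Irf8 and 0.33 for Irf9. For the GTPases it was 0.67 for Gbp2, 0.82 for Gbp3, 0.6 for Gbp7, 0.84 for Igtp, 0.31 for Irgm1, 0.45 for Irgm2, 0.99 for Iigp1 and 1.04 for Ifi47. In class I presentation it was 0.42 for B2m, 1.07 for H2-T23, 0.87 for Nlrc5, 0.58 for Tap1, 1.05 for Psmb8, 0.61 for Psmb9 and 0.54 for Psmb10, and in class II 0.64 for Ciita, 1.27 for H2-Ab1 and 1.2 for Cd74. Among antiviral genes and the checkpoint ligand it was 0.54 for Isg15, 0.58 for Ifit1, 0.93 for Ifit3, 0.6 for Ifitm3, 0.41 for Rsad2 and 0.41 for Cd274. Among the 15 largest rises and 15 largest falls it was -0.43 for Col11a2, whose rise was smaller with sgArid1a, and 0.38 for Epha3, whose fall was smaller. These values cover the called members of a panel made up mostly of interferon genes and the largest changes, and not all 109 genes. Panel members without a called interaction are left out, among them H2-K1 (0.19), H2-D1 (0.25), Irf1 (0.28) and Parp12 (0.07). The interaction was called for 13 of 15 tested GTPases, 2 of 8 class I genes and 6 of 14 peptide supply genes. It was called for 7 of 7 class II genes and 24 of 46 antiviral genes. Of the 109, 52 were in the 5 interferon lists. Of 19 tested p53 targets 4 were called with a negative interaction, against 0.882% of all tested genes called in either direction. Cdkn1a was 1 of these 4 (-0.38, adjusted p = 0.0019).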

How the results depend on the processing

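For the sgScramble comparison the count of higher genes ranged from 1171 to 1908 when 1 library was left out, and it was 22 (lower genes 51) at a log2 difference of at least 1. The genes called between the sgArid1a_PBS and sgScr_PBS labels, 336 in all, numbered 214 to 523 when 1 library was left out. The interaction count ranged from 57 to 881 and was 56 without the filter on low values. Only libraries labelled sgScr were left out singly, so these ranges do not cover the libraries labelled sgArid1a. The cause of these shifts was not tested. The share of higher calls was 44.9%, and 53.1% with median centring. Leaving out the libraries labelled sgArid1a_PBS was added after the data were seen. Of 183 named genes under 13 alternatives (2371 values), 2309 kept their side of the threshold, 47 lost and 13 gained the call. A change of direction was counted only where the gene was called in the main fit or in the alternative. There were 2 such changes, both with quantile normalization: Atp5b (0.022) and Ctnnb1 (0.14). Genes called in neither fit count among the 2309 even where their sign changed. Replicate numbers did not pair the libraries (correlations of deviations -0.247 to 0.217); the replicate block gave 1957 higher and 2386 lower genes, with Igtp and Ifit1 gaining the call, and the crossed pairing, added after the data were seen, 1988 and 2404. A count test was not run because the table holds log2 values.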

Other observations

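Lists for 3 pathways were drawn up after their values had been seen, so their counts describe and support nothing. Of 27 genes of bone morphogenetic protein signalling 18 were tested, and 10 were higher and 2 lower with the sgScr_IFNg label (median 0.22). Besides the Id genes and Smad6, the antagonist Nog rose by 0.92 ± 0.094 (log2 values 6.22 and 6.22 against 6.96 and 7.32), the inhibitory Smad7 by 0.45 ± 0.070 and the receptor Bmpr1a by 0.22 ± 0.041, while the decoy receptor Bambi fell by 0.42 ± 0.049 and the protease Bmp1 fell by 0.70 ± 0.056. With the sgArid1a_PBS label 0 of the 18 were called.

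Of 12 tested feedback genes of the ERK pathway 9 were lower and 0 higher with the sgScr_IFNg label (median -0.38). The phosphatase Dusp6 went from 12.13 and 12.18 to 11.01 and 11.02, the inhibitor Spry4 fell by 0.72 ± 0.060, and the transcription factors Etv4 and Etv5 fell by 0.66 ± 0.041 and 0.85 ± 0.057. Of 7 tested beta-catenin targets and beta-catenin itself 4 were lower (median -0.40). Axin2 fell by 1.06 ± 0.049, Wisp1 fell by 1.17 ± 0.053 and Ccnd1 (cyclin D1) fell by 0.99 ± 0.041, while Ctnnb1 differed by -0.01 ± 0.033. In the libraries labelled sgArid1a_PBS 0 of these 7 and 2 of the 12 ERK feedback genes were called, both lower.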
